A study of Homo sapiens with 30 samples.

Results

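Macrophage-like THP-1 cells exposed to 100 µg/ml multi-walled carbon nanotubes (MWCNT) were compared between 24 h and 1 h of exposure. The arrays were chosen by their titles, which gave 3 arrays at 24 h and 3 at 1 h, 6 of the 30 arrays of the series. THP-1 is an established human acute monocytic leukaemia line. In every group, controls included, the cells had first been made adherent with 82 nM phorbol 12-myristate 13-acetate (PMA) for 24 h, then washed, scraped off, counted and plated anew. Particles were added to the fresh cultures, and RNA was taken from the cells still attached after 1 or 24 h. The groups used here are 100 µg/ml MWCNT at 24 h and at 1 h, 10 µg/ml MWCNT at 24 h and at 1 h, 100 µg/ml titanium dioxide nanobelts (TiO2-NB) at 24 h and at 1 h, and control cells with 0 µg/ml at 24 h and at 1 h, with 3 arrays each. The labels call the replicates biological. Nothing in them says whether 1 h and 24 h cultures were handled together, so time of exposure, time since replating and any batch that followed time cannot be told apart within 1 treatment.

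MWCNT are stiff, tube-shaped carbon particles that macrophages take up or try to take up, and long fibres of this kind are known for provoking inflammation in the lung. PMA activates protein kinase C, and THP-1 cells respond by leaving the cell cycle, attaching to plastic and taking on macrophage features over the following days. A comparison of 24 h with 1 h in exposed cells therefore mixes what culture does by itself with what the particles add. For that reason each change with time in exposed cells is given beside the same change in control cells, measured on other arrays, and the difference between both changes was tested.

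Values are the authors' log2 intensities after RMA, a method that corrects background, makes arrays alike in distribution and summarises the probes of a probe set. They ran from 1.89 to 14.42, with array medians of 6.35 to 6.46. Arrays carry no count of reads, so precision is set by how many there are. After a filter on dim probe sets, 10050 genes were tested, each through its brightest probe set on average. A gene was called when its adjusted p from limma was under 0.05. The error given with a log2 change is its standard error from the model, and n = 3 arrays per group throughout. The lowest correlation between arrays was 0.994 among the 24 h MWCNT arrays and 0.991 among the 1 h MWCNT arrays, and pairs across the times correlated at 0.969 to 0.972. Of 14 monocyte and macrophage markers, 13 were on the array and 12 passed the filter and were tested. The median log2 level of the 13 was 10.6 at 24 h and 9.89 at 1 h with MWCNT. The log2 of the summed signal of these 13 markers was 14.93 to 15.01 at 24 h and 14.58 to 14.64 at 1 h with MWCNT. In controls it was 15.10 to 15.13 at 24 h and 14.58 to 14.66 at 1 h. The median levels of epithelial, lymphocyte, fibroblast, endothelial and neutrophil markers lay between 4.77 and 5.43 in the MWCNT arrays, below every array median. Between 24 h and 1 h with MWCNT the summed signal was higher for neutrophil markers (8.72 to 8.82 against 8.35 to 8.58) and for fibroblast markers (9.60 to 9.95 against 9.25 to 9.28), and lower for endothelial markers (8.33 to 8.67 against 8.84 to 9.18) and epithelial markers (8.84 to 8.96 against 8.99 to 9.06). The lymphocyte sums overlapped (10.11 to 10.18 against 10.11 to 10.91). In controls the neutrophil sums were 8.21 to 8.45 at 24 h and 8.32 to 8.46 at 1 h. Within the neutrophil list, MMP8 averaged 7.62 at 24 h and 5.53 at 1 h with MWCNT while CXCR1, CXCR2, CSF3R, S100A12 and LTF were lower at 24 h. PDGFRA, of the fibroblast list, averaged 8.67 at 24 h and 7.23 at 1 h, and VWF, of the endothelial list, averaged 7.17 at 24 h and 8.27 at 1 h. These marker genes were chosen after their values were seen. The part of other cells in the results was not tested. In bulk RNA, fewer cells of a kind and less RNA per cell cannot be told apart.

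Cells with MWCNT changed broadly between the times. At 24 h, 2286 of 10050 genes were higher than at 1 h (22.7%) and 1779 were lower (17.7%), 4065 in all (40.4%). Changes of at least 2-fold were fewer, 226 higher (2.25%) and 248 lower (2.47%), 474 in all (4.72%). In control cells 2087 genes rose with time (20.8%) and 1621 fell (16.1%), 3708 in all (36.9%). The arrays of the 2 times did not overlap for 5037 genes with MWCNT (50.1%) and for 4522 in controls (45%). Across genes, the change with MWCNT and the change in controls had a Pearson correlation of 0.833 and a Spearman correlation of 0.767 over 10050 genes, given as a description since genes are not independent.

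**Figure D1:**
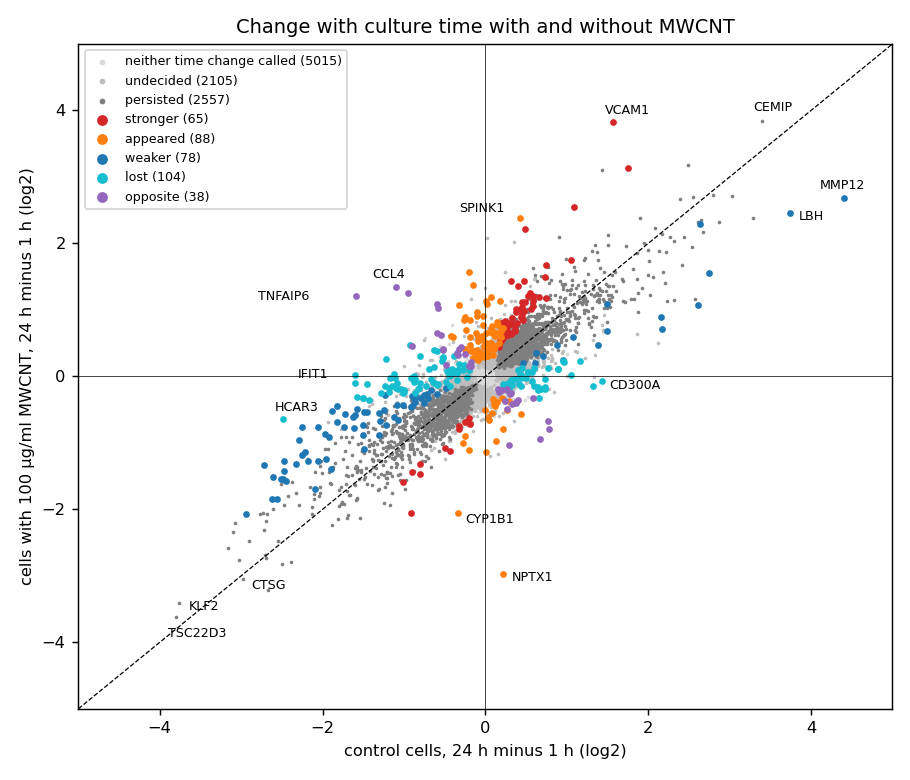
Each point is 1 of 10050 genes, with its log2 change from 1 h to 24 h in control cells on the x axis and in cells with 100 µg/ml MWCNT on the y axis; the dashed line marks equal change. Most genes lie along the line, such as CEMIP (3.85 with MWCNT, 3.39 in controls), while coloured genes have a called difference, such as VCAM1 above it and MMP12 below it.

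The difference between both changes with time was called for 373 genes (3.71%), 265 with a higher value with MWCNT (2.64%) and 108 with a lower one (1.07%). Of these, 64 and 19 differed at least 2-fold (0.637% and 0.189%, together 0.826%). By the calls of the 3 tests, 2557 genes persisted (25.4%), which means that they were called in both, in the same direction, with no called difference. The change was stronger with MWCNT for 65 genes (0.647%), weaker for 78 (0.776%) and of opposite sign for 38 (0.378%). For 88 genes a change appeared that was called with MWCNT and not in controls (0.876%), and for 104 a change called in controls was lost (1.03%). A further 2105 were called in 1 of both without a called difference (20.9%) and are undecided, and 5015 were called in neither (49.9%). A difference that missed the threshold does not show that the changes were equal, since the median standard error of the difference was 0.15. The count of called differences rested on single arrays: it was 173 without replicate 1 of the 24 h controls, 193 without replicate 1 of the 1 h controls, 227 and 229 without replicate 2 or 3 of the 1 h MWCNT arrays, and 240 without replicate 2 of the 24 h MWCNT arrays.

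The large culture changes mostly went on under MWCNT. Of 523 genes that changed at least 2-fold in control cells (5.2%), 467 were called in the same direction with MWCNT. A difference was called for 92 of the 523, and in 86 of these the change was smaller with MWCNT. Choosing genes by a large control change favours a smaller one elsewhere, since the same control arrays enter the difference. Chosen the other way, by a change of at least 2-fold with MWCNT, 474 genes held 74 called differences, of which 26 were smaller and 48 larger in size with MWCNT. Of the 523, 191 were control rises (1.9%) and 332 control falls (3.3%).

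**Figure D2:**
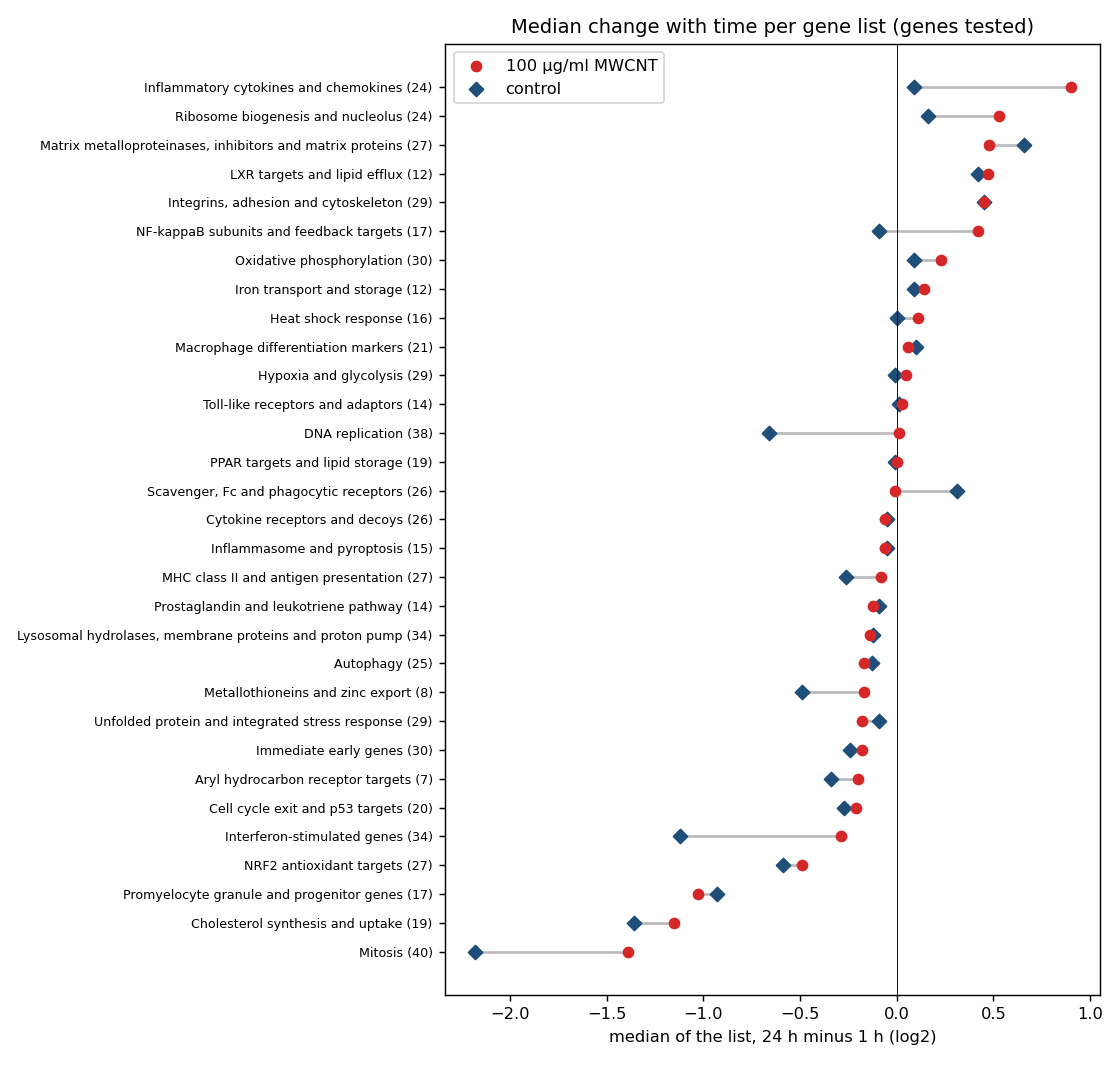
Points give the median log2 change from 1 h to 24 h over the tested genes of each list, with 100 µg/ml MWCNT (circles) and in controls (diamonds), and the number of tested genes stands in brackets. Mitosis, cholesterol and granule genes are low in both, while cytokine genes (0.90 with MWCNT, 0.09 in controls), DNA replication genes (0.01 and -0.66) and interferon-stimulated genes (-0.29 and -1.12) part.

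Granule genes of the promyelocyte stage fell with time with and without MWCNT. Their products are the proteases of azurophil granules, which early myeloid cells make and macrophages give up. Of 17 tested genes of this list, 13 fell with MWCNT and 0 rose, with a median log2 change of -1.03, against 0.01 over all genes. In controls 12 fell and 1 rose, with a median of -0.93. None of the 17 had a called difference, where 3.71% of all genes had one, and 12 persisted. By limma, 3 of the 17 differences had an unadjusted p under 0.05. CTSG, which encodes cathepsin G, had log2 levels of 8.79, 9.38 and 9.42 at 24 h with MWCNT, against 12.58, 11.88 and 12.29 at 1 h. All 24 h arrays lay below all 1 h arrays. The change was -3.05 ± 0.36 (adjusted p = 2.59e-07 by limma) with MWCNT and -2.98 ± 0.36 in controls. ELANE (neutrophil elastase, -2.82 ± 0.43) and PRTN3 (proteinase 3, -2.80 ± 0.44) fell with MWCNT as well, and MS4A3, a membrane protein of granulocyte and monocyte progenitors, fell by 3.21 ± 0.36 on the log2 scale.

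Several transcription factors and other genes that answer quickly to stimuli were high at 1 h and low at 24 h in both conditions. KLF2 encodes a transcription factor that restrains inflammatory activation of monocytes. Its levels were 6.5, 6.71 and 6.49 at 24 h with MWCNT, against 9.72, 10.37 and 9.85 at 1 h, a change of -3.41 ± 0.25 (adjusted p = 1.35e-10 by limma), and of -3.76 ± 0.25 in controls. TSC22D3, which encodes the glucocorticoid-induced leucine zipper, had levels of 7.70, 7.90 and 7.82 at 24 h with MWCNT and of 11.34, 11.61 and 11.35 at 1 h. It had the deepest fall with MWCNT among the genes named here (-3.63 ± 0.12, against -3.80 ± 0.12 in controls). NR4A2, a nuclear receptor switched on by many stimuli, RHOB, a small GTPase, and CCN2, a matricellular growth factor, fell as well, with log2 changes of -2.76 ± 0.47, -2.73 ± 0.29 and -2.68 ± 0.36. Over the list of 30 tested immediate early genes, 11 rose and 13 fell with MWCNT, 7 rose and 13 fell in controls, and 18 persisted. IER5 alone had a called difference (-0.61 ± 0.07 with MWCNT, -1.12 ± 0.07 in controls). That is near the 3.71% of all genes with a called difference, and 4 of the 30 differences had an unadjusted p under 0.05 by limma.

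Cholesterol synthesis genes fell together in both conditions. These are targets of the sterol-sensing factor SREBP2, and they encode the enzymes of the mevalonate pathway and of sterol formation. With MWCNT 17 of 19 tested genes fell and 0 rose (median -1.15), and in controls 18 fell (median -1.36). HMGCS1, the enzyme that makes the precursor of mevalonate, had levels of 8.64, 8.35 and 8.32 at 24 h with MWCNT, against 10.21, 10.19 and 10.23 at 1 h. Its change was -1.78 ± 0.11 (adjusted p = 1.74e-11 by limma), and -2.11 ± 0.11 in controls. ACAT2, a thiolase at the entry of the pathway, fell by 2.47 ± 0.17 on the log2 scale with MWCNT. Of the list, 15 genes persisted and 2 weakened. The count of 2 was 4 without replicate 1 of the 1 h MWCNT arrays or replicate 3 of the 24 h controls, and 1 without any other single array. The fall of FDPS, which makes farnesyl diphosphate, was -1.69 ± 0.06 with MWCNT and -2.09 ± 0.06 in controls, and the difference of 0.40 ± 0.08 was called (adjusted p = 0.0061 by limma). TMEM97, a sterol-regulated membrane protein, changed by -1.42 ± 0.20 with MWCNT and by -2.47 ± 0.20 in controls, a difference of 1.05 ± 0.29 (adjusted p = 0.0416 by limma) whose call was lost without any 1 of 10 arrays. Of its other 3 probe sets, 1 gave a called difference (1.17) and 2 did not (0.92 and 0.08).

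LXR is a nuclear receptor for oxysterols, and its targets include exporters and carriers of cholesterol. Of 12 tested, 8 rose and 2 fell with MWCNT, against 7 and 2 in controls. The shares over all genes were 22.7% and 17.7% with MWCNT, and 20.8% and 16.1% in controls. NR1H3, which encodes LXR-alpha itself, rose by 1.76 ± 0.18 with MWCNT and by 0.98 ± 0.18 in controls, and the difference was not called. APOE, a lipid carrier that macrophages secrete, rose by 1.38 ± 0.16 and ABCG1, a cholesterol exporter, by 1.29 ± 0.32. PLTP, the phospholipid transfer protein, had levels of 7.12, 7.44 and 7.36 at 24 h with MWCNT, against 6.42, 6.42 and 6.34 at 1 h. In controls its levels were 6.36, 6.53 and 6.51 at 24 h and 6.60, 6.4 and 6.48 at 1 h. It rose with MWCNT by 0.91 ± 0.08, with -0.03 ± 0.08 in controls, and the difference of 0.94 ± 0.11 was called (adjusted p = 7e-05 by limma).

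Antioxidant genes are driven by NRF2, a transcription factor freed when its partner KEAP1 senses electrophiles, and most of them fell in both conditions. With MWCNT 17 of 27 fell and 0 rose (median -0.49), and in controls 20 fell and 1 rose (median -0.59). NQO1, a quinone reductase, had levels of 9.79, 9.52 and 9.56 at 24 h with MWCNT, against 11.35, 11.29 and 11.32 at 1 h. Its change was -1.69 ± 0.09 with MWCNT and -1.31 ± 0.09 in controls. SLC7A11, the cystine importer, changed by -1.96 ± 0.25 with MWCNT and GCLM, a subunit of the glutathione-making enzyme, by -1.35 ± 0.19. HMOX1, which breaks down haem and is often taken as a sign of oxidative stress, was 10.22, 10.37 and 10.38 at 24 h with MWCNT and 10.90, 10.59 and 10.95 at 1 h, a change of -0.49 ± 0.11 with MWCNT and of -0.64 ± 0.11 in controls. Of these 27 genes, 16 persisted and PRDX1, a peroxide reductase, had a called difference that was lost without any 1 of 6 arrays (-0.18 ± 0.05 with MWCNT, -0.48 ± 0.05 in controls). A call in 1 of 27 genes is near the 3.71% of all genes with a called difference. By limma, 7 of the 27 differences had an unadjusted p under 0.05.

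Scavenger, Fc and phagocytic receptors moved in both directions. Of 26 tested, 11 rose and 6 fell with MWCNT (median -0.01), against 14 and 5 in controls (median 0.31). Over all genes, 22.7% rose and 17.7% fell with MWCNT, and 20.8% and 16.1% did so in controls. A called difference was found for 2 of the 26, both lower with MWCNT, where 3.71% of all genes had one. CD163, the haemoglobin scavenger receptor, had levels of 9.87, 9.56 and 9.56 at 24 h with MWCNT, against 7.51, 7.65 and 7.39 at 1 h. It rose by 2.15 ± 0.15 (adjusted p = 4.5e-11 by limma) with MWCNT and by 2.17 ± 0.15 in controls, and the difference was -0.02 ± 0.21. MSR1, the class A scavenger receptor, rose by 2.32 ± 0.21 and by 2.61 ± 0.21. FCGR2A, an activating Fc receptor, changed by -1.63 ± 0.10 with MWCNT and by -1.71 ± 0.10 in controls. CD14 and CD36 rose by 0.69 ± 0.24 and 0.74 ± 0.15 with MWCNT, although the call of CD14 was lost without replicate 1 or 3 of the 1 h arrays or replicate 1 of the 24 h arrays.

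Among matrix genes 17 of 27 rose and 5 fell with MWCNT, against 19 and 3 in controls. Among all genes 22.7% rose and 17.7% fell with MWCNT, against 20.8% and 16.1% in controls. COL4A1, a basement membrane collagen, had levels of 11.08, 10.67 and 10.60 at 24 h with MWCNT and of 8.50, 8.63 and 8.52 at 1 h. It rose by 2.23 ± 0.12 with MWCNT and by 2.09 ± 0.12 in controls. MMP9, a gelatinase, rose by 1.20 ± 0.08 and by 1.15 ± 0.08. Of 29 genes of integrins, adhesion and cytoskeleton, 19 rose and 4 fell with MWCNT, against 18 and 5 in controls, and 19 persisted. MYL9, a myosin light chain, rose by 2.33 ± 0.20 with MWCNT. The highest rise of any gene among those whose arrays did not overlap was that of CEMIP, a hyaluronan-degrading protein, with levels of 10.54, 10.42 and 10.35 at 24 h with MWCNT, against 6.73, 7.01 and 6.04 at 1 h. Its change was 3.85 ± 0.27 with MWCNT and 3.39 ± 0.27 in controls.

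**Figure D3:**
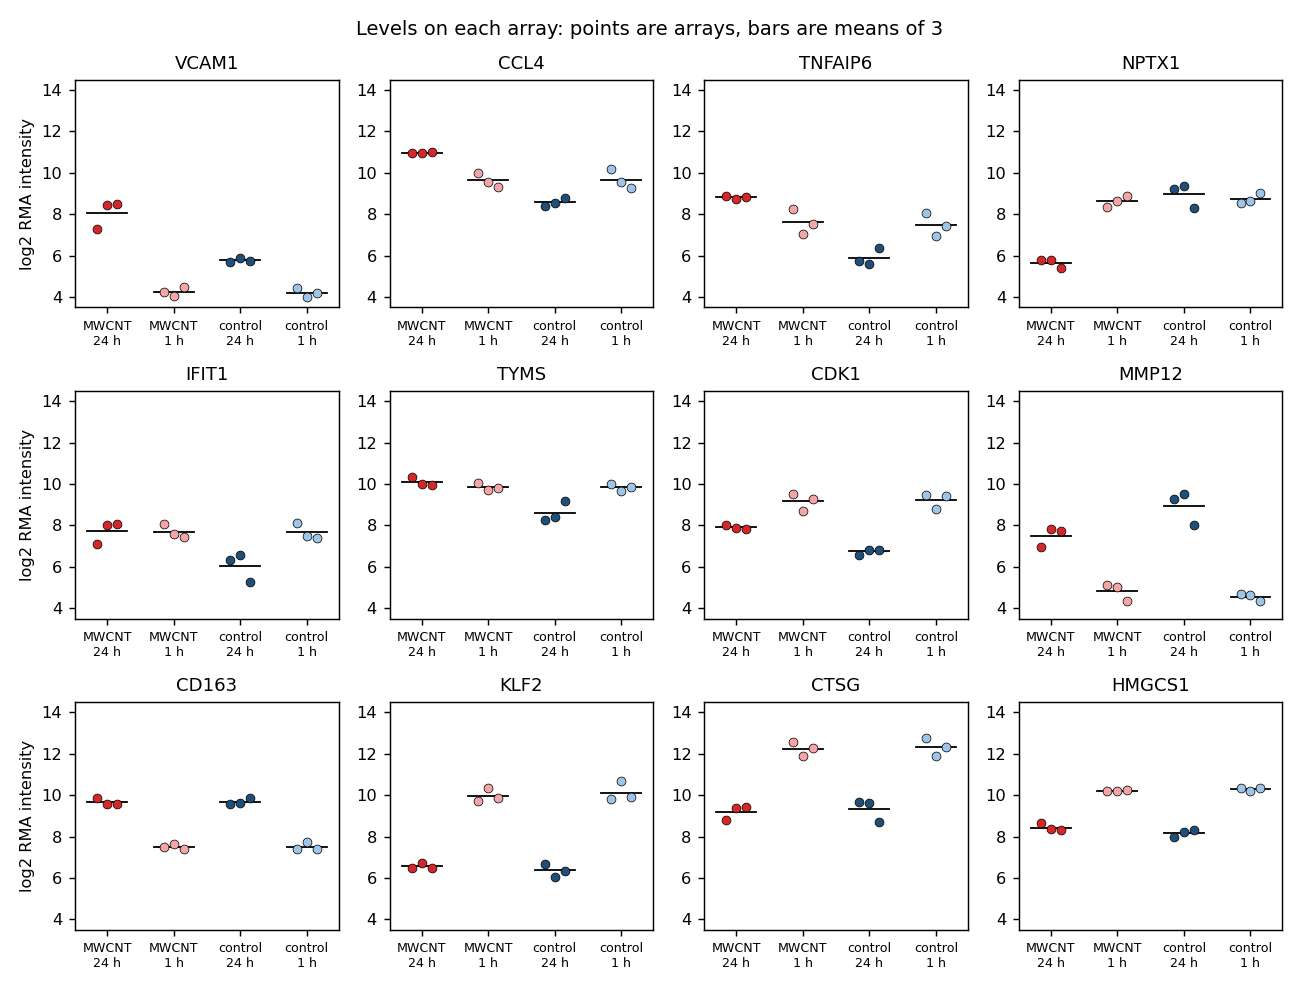
Log2 RMA intensity of 12 genes on each array, with points for the 3 arrays of 24 h MWCNT, 1 h MWCNT, 24 h control and 1 h control from left to right and bars at the group means. VCAM1, CCL4 and TNFAIP6 are highest at 24 h with MWCNT, NPTX1 is lowest there, IFIT1 and TYMS are low in 24 h controls alone, and CD163, KLF2, CTSG and HMGCS1 lie alike with and without MWCNT.

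Inflammatory cytokine and chemokine genes rose under MWCNT in larger number than in culture alone. Of 24 tested, 15 rose with MWCNT and 0 fell (median 0.90), while 5 rose and 3 fell in controls (median 0.09). The count of 5 was 3 without replicate 2 or 3 of the controls at either time. The difference was called for 8 (median of all 24 differences 0.69, against -0.01 over all genes), and all 8 were higher with MWCNT. This count was 5 without replicate 1 or without replicate 2 of the 24 h controls. CCL4, which attracts monocytes and T cells, had levels of 10.97, 10.96 and 10.99 at 24 h with MWCNT and of 10.01, 9.57 and 9.32 at 1 h. In controls it was 8.39, 8.56 and 8.79 at 24 h and 10.20, 9.55 and 9.27 at 1 h. The gene therefore moved in opposite directions, 1.34 ± 0.23 with MWCNT and -1.09 ± 0.23 in controls, and the difference of 2.43 ± 0.32 was called (adjusted p = 0.000113 by limma). CCL4 has near-identical copies in the genome, and its probe set may read them too.

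CCL20, which draws cells that carry CCR6, rose in both but further with MWCNT. It had 12.91, 12.67 and 12.59 at 24 h with MWCNT, against 9.49, 9.73 and 9.55 at 1 h, a change of 3.14 ± 0.23 with MWCNT and of 1.75 ± 0.23 in controls. The difference of 1.39 ± 0.33 (adjusted p = 0.017 by limma) lost its call without replicate 1 or 2 of the 24 h controls. CCL8, a monocyte chemokine, had 6.22, 7.45 and 7.70 at 24 h with MWCNT and 5.68, 5.53 and 5.45 at 1 h, and replicate 1 of the 24 h arrays was the lowest of the 3. It rose by 1.57 ± 0.26 with MWCNT, with -0.20 ± 0.26 in controls. CCL2, the main chemokine for monocytes, rose by 0.89 ± 0.22, with -0.25 ± 0.22 in controls, and its difference of 1.14 ± 0.31 (adjusted p = 0.0355 by limma) lost its call without any 1 of 7 arrays.

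IL1B, a cytokine processed by the inflammasome, had levels of 13.44, 13.79 and 13.81 at 24 h with MWCNT and of 12.50, 12.03 and 12.58 at 1 h. It rose by 1.31 ± 0.20 with MWCNT and by 1.06 ± 0.20 in controls, with a difference of 0.26 ± 0.29 that was not called. TNF rose by 0.95 ± 0.21 with MWCNT (levels of 9.71, 9.36 and 9.39, against 8.50, 8.56 and 8.56), with 0.23 ± 0.21 in controls. Its difference of 0.71 ± 0.29 was not called (adjusted p = 0.212 by limma). CXCL8, which attracts neutrophils, rose by 0.51 ± 0.11 with MWCNT, with 0.15 ± 0.11 in controls, and CXCL1, of the same family, rose by 1.63 ± 0.23 and by 0.58 ± 0.23. The difference of CXCL1 was not called (adjusted p = 0.0672 by limma). That of CXCL8 depended on the probe set: it was 0.35 ± 0.15 for the brighter one (adjusted p = 0.248 by limma) and 0.98 for the other, which was called (adjusted p = 0.00987 over probe sets) with a rise of 1.23 with MWCNT. EBI3, a subunit shared by several interleukins, rose by 2.08 ± 0.52 with MWCNT, with 0.02 ± 0.52 in controls and an uncalled difference.

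NF-kappaB is the transcription factor family that switches on many of these genes, and it induces its own inhibitors. Of 17 tested subunits and feedback targets, 10 rose and 3 fell with MWCNT (median 0.42), while 1 rose and 7 fell in controls (median -0.09). Differences were called for 8, all higher with MWCNT, and for 5 without replicate 3 of the 1 h MWCNT arrays or without replicate 1 of the 24 h controls. TNFAIP6, a hyaluronan-binding protein made in inflammation, had 8.90, 8.74 and 8.83 at 24 h with MWCNT and 8.27, 7.07 and 7.52 at 1 h. In controls it had 5.74, 5.60 and 6.37 at 24 h and 8.06, 6.97 and 7.45 at 1 h. The arrays of 24 h with MWCNT were the highest and those of 24 h controls the lowest. Its change was 1.20 ± 0.40 with MWCNT and -1.59 ± 0.40 in controls. The difference of 2.79 ± 0.57 (adjusted p = 0.00671 by limma) was called under all 20 alternatives, whereas the rise with MWCNT lost its call without replicate 2 or 3 of the 1 h arrays or replicate 1 of the 24 h arrays. GCH1, which makes the cofactor tetrahydrobiopterin, rose by 1.19 ± 0.20, with 0.07 ± 0.20 in controls. IRF1, an interferon regulatory factor, changed by -1.27 ± 0.14 with MWCNT and by -1.29 ± 0.14 in controls and persisted.

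CXCL10, a chemokine of activated T cells that is induced through both interferon and NF-kappaB, also went in opposite directions. Its promoter, taken from RefSeq on GRCh38.p14 (chr4:76023498-76023747, minus strand, the 250 bases before the start), is shown because it holds letters of both factors. The capitals mark the core of the interferon-stimulated response element (GAAA, any 2 bases, GAAA) 221 bases before the start, and the kappaB motif (GGGA, any 2 bases, TTCC) 177 bases before it.
CXCL10: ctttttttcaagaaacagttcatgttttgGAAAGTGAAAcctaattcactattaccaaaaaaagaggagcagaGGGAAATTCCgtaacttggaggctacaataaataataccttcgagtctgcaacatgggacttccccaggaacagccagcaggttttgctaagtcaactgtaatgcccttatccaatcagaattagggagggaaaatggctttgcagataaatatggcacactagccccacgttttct
The kappaB motif, searched on both strands, stood within 250 bases before to 50 after the start of 5 of 16 cytokine genes with a promoter in the table (31.2%) and of 141 of 8129 promoters of tested genes (1.73%). A sterol element (TCAC, any base, CCAC) was searched alike for the cholesterol list. It stood in 1 of 17 promoters of that list (5.88%) and in 86 of the 8129 (1.06%). A match describes letters and says nothing of binding. CXCL10 had levels of 7.47, 8.04 and 8.26 at 24 h with MWCNT and of 7.23, 6.76 and 6.5 at 1 h. In controls it was 6.11, 6.14 and 6.01 at 24 h and 6.95, 6.65 and 6.44 at 1 h. The change was 1.09 ± 0.20 with MWCNT and -0.59 ± 0.20 in controls, and the difference of 1.69 ± 0.28 was called (adjusted p = 0.00108 by limma) under all 21 alternatives.

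Among 29 genes of integrins, adhesion and cytoskeleton, the difference was called higher for 2 and lower for 1 (median -0.12). The shares over all genes were 2.64% and 1.07%. VCAM1 (GRCh38 chr1:100719742-100739045) encodes an adhesion molecule for leukocyte integrins. Its levels were 7.30, 8.45 and 8.51 at 24 h with MWCNT and 4.25, 4.03 and 4.49 at 1 h, against 5.71, 5.90 and 5.74 in 24 h controls and 4.43, 4.02 and 4.19 in 1 h controls. It rose in both, by 3.83 ± 0.25 with MWCNT and by 1.57 ± 0.25 in controls, and the difference was 2.27 ± 0.35 (adjusted p = 0.000618 by limma). ICAM1, another adhesion molecule, rose by 0.77 ± 0.11 with MWCNT, with 0.16 ± 0.11 in controls, and another probe set of it gave a difference of 0.44 that was not called (adjusted p = 0.18 over probe sets). From other lists, CCR7, the receptor that guides mature dendritic cells to lymph nodes, had 6.04, 5.87 and 6.07 at 24 h with MWCNT and 4.68, 5.28 and 4.91 at 1 h. It changed by 1.03 ± 0.17 with MWCNT and by -0.59 ± 0.17 in controls, a difference of 1.62 ± 0.24 (adjusted p = 0.000372 by limma). LAMP3, a glycoprotein of lysosomes that marks mature dendritic cells, had 5.80, 5.78 and 5.79 at 24 h with MWCNT and 5.19, 4.20 and 4.23 at 1 h, against 2.92, 3.76 and 3.76 in 24 h controls and 4.80, 4.06 and 4.42 in 1 h controls. It changed by 1.25 ± 0.28 and by -0.95 ± 0.28, a difference of 2.20 ± 0.39 (adjusted p = 0.00246 by limma). The 24 h controls lay near the bottom of the array range, where background limits how low a value can go, so the size of the difference is uncertain. PTGS2, the inducible prostaglandin synthase, rose by 0.61 ± 0.18 with MWCNT, with -0.42 ± 0.18 in controls. IRAK3, an inhibitor of Toll-like receptor signalling, fell less with MWCNT (-0.87 ± 0.17) than in controls (-1.98 ± 0.17), a difference of 1.10 ± 0.24 (adjusted p = 0.00887 by limma).

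Most interferon-stimulated genes fell in control culture, and for 17 of 34 the change with MWCNT differed from it. These genes encode antiviral proteins and are read out together through the response element named above. With MWCNT 17 of 34 tested genes fell and 1 rose (median -0.29), while in controls 29 fell and 1 rose (median -1.12). The count of falls with MWCNT was 10 without replicate 1 of the MWCNT arrays at either time. All 17 differences were higher with MWCNT, with 14 to 20 when single arrays were left out. By class, 11 weakened, 6 were lost and 6 persisted. IFIT1 (GRCh38 chr10:89392623-89406487), an RNA-binding antiviral protein, is shown with its promoter (chr10:89392373-89392622, plus strand, RefSeq, GRCh38.p14). The capitals mark the 2 matches to the same core (GAAA, any 2 bases, GAAA), read on the other strand, 116 and 103 bases before the start.
IFIT1: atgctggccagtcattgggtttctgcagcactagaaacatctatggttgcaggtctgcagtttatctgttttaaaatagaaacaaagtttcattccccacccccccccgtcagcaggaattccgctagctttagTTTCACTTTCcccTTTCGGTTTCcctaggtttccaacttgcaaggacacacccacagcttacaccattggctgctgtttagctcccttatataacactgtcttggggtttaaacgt
Searched on both strands, this motif stood in 18 of 27 interferon-stimulated promoters of the table (66.7%) and in 244 of 8129 promoters of tested genes (3%).

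IFIT1 had levels of 7.08, 8.01 and 8.05 at 24 h with MWCNT and of 8.07, 7.58 and 7.42 at 1 h, and these groups overlapped. In controls it had 6.33, 6.55 and 5.29 at 24 h and 8.10, 7.48 and 7.41 at 1 h, and these did not overlap. The change was 0.02 ± 0.28 with MWCNT and -1.61 ± 0.28 in controls. The difference of 1.63 ± 0.39 (adjusted p = 0.0187 by limma) lost its call without replicate 1 of the 1 h controls, replicate 3 of the 1 h MWCNT arrays, or replicate 2 or 3 of the 24 h MWCNT arrays. MX1, a GTPase that blocks viruses, had 8.62, 9.22 and 9.40 at 24 h with MWCNT and 10.23, 9.57 and 9.71 at 1 h. Its change was -0.76 ± 0.22 with MWCNT and -2.25 ± 0.22 in controls, a difference of 1.49 ± 0.31 (adjusted p = 0.00714 by limma). The fall with MWCNT lost its call without replicate 1 at either time. IFI44, a further gene of this group, changed by -0.10 ± 0.20 and by -1.61 ± 0.20 through its brighter probe set, and the difference of 1.51 ± 0.29 was called (adjusted p = 0.00392 by limma). Its other kept probe set gave a difference of 0.57 that was not called (adjusted p = 0.266 over probe sets). IRF7 (-1.66 ± 0.23 with MWCNT, -2.16 ± 0.23 in controls) and IFITM1 (-1.58 ± 0.25 and -2.38 ± 0.25) persisted.

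Far fewer DNA replication genes fell with MWCNT than in control culture. They encode the helicase, clamp, polymerases and nucleotide-making enzymes of S phase and are targets of the E2F factors. With MWCNT 1 of 38 tested genes fell and 5 rose (median 0.01), while in controls 28 fell and 1 rose (median -0.66). Differences were called for 17, all higher with MWCNT, of which 14 were lost falls and 3 were changes that appeared. The count of 17 was 3 without replicate 1 of the 1 h controls, 4 and 5 without replicate 1 or 2 of the 24 h controls, 5 without replicate 2 of the 1 h MWCNT arrays, and 7 without replicate 1 or 2 of the 24 h MWCNT arrays. It was 8 without replicate 3 of the 1 h MWCNT arrays or without replicate 3 of the 1 h controls, and 28 without replicate 3 of the 24 h controls. At 24 h itself, 34 of the 38 genes were called higher with MWCNT than in controls, against 8.99% of all genes.

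TYMS (GRCh38 chr18:657653-673578) encodes thymidylate synthase, and its promoter (chr18:657403-657652, plus strand, RefSeq, GRCh38.p14) is shown for the E2F motif in capitals, 39 bases before the start, which reads TTTCCCGC on the other strand.
TYMS: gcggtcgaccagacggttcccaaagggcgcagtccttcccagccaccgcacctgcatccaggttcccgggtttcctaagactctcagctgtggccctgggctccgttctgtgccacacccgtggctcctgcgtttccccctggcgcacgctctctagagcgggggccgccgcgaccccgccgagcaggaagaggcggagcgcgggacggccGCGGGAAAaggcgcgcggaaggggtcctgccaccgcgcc
The E2F letters TTTCCCGC, TTTGGCGC, TTTCGCGC and TTTGCCGC, searched on both strands, stood in 16 of 34 replication promoters of the table (47.1%) and in 421 of 8129 promoters of tested genes (5.18%). TYMS had levels of 10.34, 9.99 and 9.97 at 24 h with MWCNT and of 10.05, 9.70 and 9.79 at 1 h. In controls it had 8.27, 8.4 and 9.18 at 24 h and 9.98, 9.67 and 9.86 at 1 h. The 24 h controls were below all other arrays, and replicate 3 was the nearest to them. The change was 0.26 ± 0.23 with MWCNT and -1.22 ± 0.23 in controls, and the difference of 1.48 ± 0.32 was called (adjusted p = 0.01 by limma). A dimmer probe set of the gene gave a difference of 0.14 that was not called (adjusted p = 0.786 over probe sets). RRM2, a subunit of ribonucleotide reductase, changed by -0.12 ± 0.24 with MWCNT and by -1.45 ± 0.24 in controls, a called difference whose adjusted p reached 0.0999 over the alternatives. GINS2, a part of the replicative helicase, had 7.73, 7.38 and 7.30 at 24 h with MWCNT, against 6.79, 6.61 and 6.45 at 1 h, and rose by 0.85 ± 0.19, with -0.19 ± 0.19 in controls and an adjusted p of the difference of up to 0.11. UNG, a uracil-removing repair enzyme, rose by 1.18 ± 0.16 with MWCNT and by 0.72 ± 0.16 in controls.

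Mitosis genes fell in both conditions. With MWCNT 37 of 40 fell and 0 rose (median -1.39), and in controls 39 fell (median -2.18). Differences were called for 12, all higher with MWCNT. That count was 4 without replicate 1 of the 24 h controls, 5 without replicate 1 of the 1 h controls or replicate 2 of the 1 h MWCNT arrays, 6 without replicate 3 of the 1 h controls, and 7 without replicate 2 or 3 of the 24 h MWCNT arrays. Of the list, 26 persisted and 11 weakened, but 29 of the 40 differences had an unadjusted p under 0.05. At 24 h itself, 30 of the 40 genes were called higher with MWCNT than in controls and 0 lower, against 8.99% and 4.04% of all genes. CDK1, the kinase that starts mitosis, had levels of 8.04, 7.86 and 7.81 at 24 h with MWCNT and of 9.51, 8.72 and 9.30 at 1 h. In controls it had 6.59, 6.82 and 6.82 at 24 h and 9.47, 8.78 and 9.43 at 1 h. Its change was -1.28 ± 0.21 with MWCNT and -2.48 ± 0.21 in controls. The difference of 1.20 ± 0.30 was called (adjusted p = 0.0252 by limma), with an adjusted p of up to 0.088 over the alternatives, and another probe set gave 0.98 without a call (adjusted p = 0.0654 over probe sets). NDC80, a kinetochore protein, changed by -1.33 ± 0.22 and by -2.72 ± 0.22. HMMR, ASPM and DLGAP5, all proteins of the spindle, fell with MWCNT, with log2 changes of -2.58 ± 0.19, -2.34 ± 0.21 and -2.21 ± 0.24 and no called difference from controls. CDKN1A, an inhibitor of cyclin-dependent kinases, rose by 0.50 ± 0.10 with MWCNT and by 0.58 ± 0.10 in controls.

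**Figure D4:**
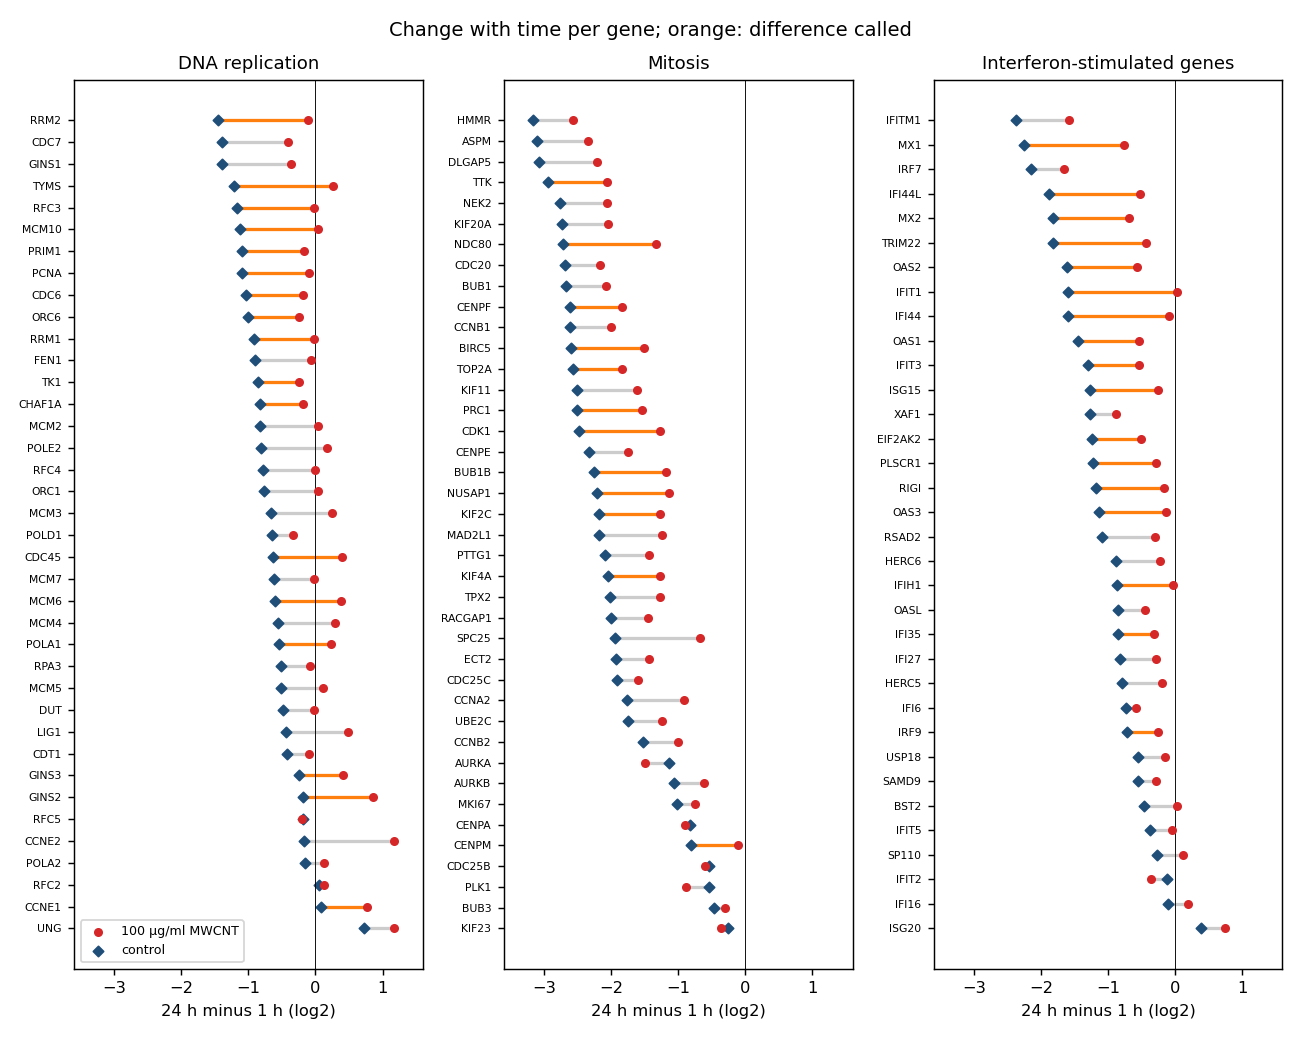
Log2 change from 1 h to 24 h of every tested gene of 3 lists, with 100 µg/ml MWCNT (circles) and in controls (diamonds); the joining line is orange where the difference was called. Most circles lie right of their diamonds, with 17 of 38 called for DNA replication, 12 of 40 for mitosis and 17 of 34 for interferon-stimulated genes.

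Genes of ribosome building and of the respiratory chain were called as rising in more members with MWCNT. Over all genes 22.7% rose with MWCNT and 20.8% in controls. Of 24 genes of ribosome biogenesis, 19 rose and 0 fell with MWCNT (median 0.53), against 7 and 0 in controls (median 0.16). The control count of 7 was 4 without replicate 3 at either time. NOP16, a nucleolar protein, had 10.84, 10.67 and 10.70 at 24 h with MWCNT and 9.71, 9.53 and 9.58 at 1 h, a rise of 1.13 ± 0.09 with MWCNT and of 0.59 ± 0.09 in controls. Its difference of 0.54 ± 0.13 was called (adjusted p = 0.0188 by limma), as were those of NOLC1 (0.58 ± 0.14) and WDR12 (0.56 ± 0.11), both nucleolar proteins. Of 4 probe sets of NOP16, 2 showed neither a called rise (0.08 and -0.02) nor a called difference (0.11 and 0.01). The other 2 probe sets of NOLC1 gave differences of 0.45 and 0.34 that were not called. The list held 4 called differences in all, 1 without replicate 1 of the 1 h controls or replicate 1 or 2 of the 24 h controls, 2 without replicate 2 or 3 of the 1 h MWCNT arrays or replicate 1 of the 24 h MWCNT arrays, and 9 without replicate 1 of the 1 h MWCNT arrays. Of 30 oxidative phosphorylation genes, 21 rose and 1 fell with MWCNT (median 0.23), against 8 and 2 in controls (median 0.09). A difference was called for 2, ATP5MC1 (0.36 ± 0.10), a subunit of ATP synthase, and CYCS (0.33 ± 0.08), which encodes cytochrome c, and for 0 without replicate 3 of the 1 h MWCNT arrays or replicate 1 of the 24 h controls. The other rises were not shown to differ from controls, and 3.71% of all genes had a called difference.

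Some rises of culture time were smaller with MWCNT or were lost. At 24 h with TiO2-NB, MMP12, LBH, CD300A, NT5DC2 and MMP2 were below the 24 h controls on every array too, as given further below. MMP12, macrophage elastase, had levels of 6.94, 7.85 and 7.75 at 24 h with MWCNT and of 5.13, 5.03 and 4.35 at 1 h. In controls it had 9.28, 9.52 and 8.04 at 24 h and 4.69, 4.62 and 4.33 at 1 h. It rose by 2.68 ± 0.33 with MWCNT and by 4.40 ± 0.33 in controls, and the difference of -1.73 ± 0.47 (adjusted p = 0.0387 by limma) lost its call without any 1 of 9 arrays. LBH, a transcription cofactor, had 9.40, 9.37 and 9.5 at 24 h with MWCNT and 6.85, 7.13 and 6.90 at 1 h, against 10.62, 10.69 and 10.35 in 24 h controls and 6.48, 7.11 and 6.83 in 1 h controls. It rose by 2.46 ± 0.16 and by 3.74 ± 0.16, and the difference of -1.29 ± 0.23 (adjusted p = 0.00219 by limma) was called under all 20 alternatives. NT5DC2 rose by 0.72 ± 0.16 with MWCNT and by 2.17 ± 0.16 in controls.

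CD300A, an inhibitory receptor of myeloid cells, had 7.64, 7.25 and 7.12 at 24 h with MWCNT and 7.13, 7.59 and 7.49 at 1 h, against 8.73, 8.76 and 8.81 in 24 h controls and 7.14, 7.5 and 7.38 in 1 h controls. The 24 h controls stood above all the others. Its change was -0.07 ± 0.16 with MWCNT and 1.43 ± 0.16 in controls, a difference of -1.5 ± 0.22 (adjusted p = 0.000458 by limma). With probe sets that end in _x_at or _s_at left out, the remaining probe set of CD300A gave a difference of 0.28 that was not called (adjusted p = 0.365 by limma). STAB1, a scavenger receptor of tissue macrophages, changed by -0.16 ± 0.14 with MWCNT and rose by 0.73 ± 0.14 in controls, a difference of -0.89 ± 0.20 (adjusted p = 0.0121 by limma). VSIG4, the complement receptor of resident macrophages, changed by 0.11 ± 0.15 and rose by 0.89 ± 0.15 in controls, with a difference near the threshold (adjusted p = 0.0435 by limma). MMP2, a gelatinase, changed by -0.51 ± 0.12 with MWCNT, with 0.27 ± 0.12 in controls.

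Falls that appeared with MWCNT were led by NPTX1 and CYP1B1. NPTX1 (GRCh38 chr17:80466834-80476607) encodes a secreted pentraxin known from synapses. Its levels were 5.80, 5.78 and 5.39 at 24 h with MWCNT and 8.37, 8.62 and 8.89 at 1 h, against 9.24, 9.35 and 8.30 in 24 h controls and 8.56, 8.64 and 9.03 in 1 h controls. The 24 h MWCNT arrays lay apart from all others. The change was -2.97 ± 0.28 with MWCNT and 0.22 ± 0.28 in controls, and the difference of -3.19 ± 0.39 (adjusted p = 7.35e-05 by limma) was called under all 21 alternatives. CYP1B1, a cytochrome P450 induced by the aryl hydrocarbon receptor, had 8.80, 7.86 and 8.04 at 24 h with MWCNT and 9.95, 10.13 and 10.79 at 1 h, against 10.71, 10.74 and 10.59 in 24 h controls and 10.94, 10.87 and 11.26 in 1 h controls. It changed by -2.06 ± 0.25 with MWCNT and by -0.34 ± 0.25 in controls, a difference of -1.71 ± 0.35 (adjusted p = 0.00638 by limma). Of its 4 probe sets, 1 fell by 0.44 with MWCNT and gave a difference of -0.22 that was not called (adjusted p = 0.64 over probe sets). Already at 1 h it was -0.73 ± 0.25 relative to controls, with no call. TIPARP, another target of that receptor, changed by -2.09 ± 0.20 with MWCNT and by -1.69 ± 0.20 in controls and persisted.

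SPINK1 and DAZL rose with MWCNT from levels near the bottom of the arrays. SPINK1, a trypsin inhibitor, had 6.29, 6.09 and 5.88 at 24 h with MWCNT, against 3.54, 3.63 and 3.97 at 1 h. In controls it had 3.86, 3.84 and 4.32 at 24 h and 3.68, 3.47 and 3.61 at 1 h. The change was 2.38 ± 0.18 with MWCNT and 0.42 ± 0.18 in controls, a difference of 1.95 ± 0.26 (adjusted p = 0.000113 by limma). DAZL, known as an RNA-binding protein of germ cells, had 5.05, 4.93 and 5.21 at 24 h with MWCNT, against 2.78, 2.92 and 2.85 at 1 h, a rise of 2.22 ± 0.15, and of 0.49 ± 0.15 in controls. Both read a weak signal at 1 h, where the background of the array bounds how low a value can go.

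The exposed arrays parted from the controls at the late time. At 1 h, 0 genes were called between 100 µg/ml MWCNT and controls (0%) by limma, and 293 had an unadjusted p under 0.05, where 502.5 would have one with no change. At 24 h, 1309 were called (13%), 903 higher (8.99%) and 406 lower (4.04%), and 778 without replicate 1 of the 24 h controls. The count of lower genes was 261 without that array and 268 without replicate 3 of the 24 h MWCNT arrays. The difference of time changes is the 24 h contrast minus the 1 h contrast, so it adds the error of the 1 h arrays. Equally numbered 1 h arrays with MWCNT and in controls deviated together (correlations of 0.45, 0.68 and 0.50), and with the number as a block, over all arrays or among the 1 h arrays alone, the 1 h count was also 0. The block among the 1 h arrays was chosen after the data were seen, and 390 genes then had an unadjusted p under 0.05.

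Few genes had a called difference between the doses in their change with time, which does not show that the doses acted alike. With 10 µg/ml MWCNT, measured on other arrays, 42.9% of genes changed with time. The difference from 100 µg/ml was called for 37 genes (0.368%), 18 higher (0.179%) and 19 lower (0.189%) with 100 µg/ml. An unadjusted p under 0.05 was found for 917, where 502.5 would have one with no change. With cyclic loess scaling, 24 were higher and 14 lower. The count was 8 without replicate 1 of the 1 h arrays at the low dose, 15 to 18 without any 1 of the 24 h arrays at the low dose, 18 and 11 without replicate 2 or 3 of the 1 h arrays at the high dose, and 62, 10 and 12 without replicate 1, 2 or 3 of the 24 h arrays at the high dose. SPINK1 changed by 2.38 ± 0.18 at 100 µg/ml and by 0.45 ± 0.18 at 10 µg/ml, a difference of 1.92 ± 0.26 (adjusted p = 0.00133 by limma). CCL19, a ligand of CCR7, changed by 1.37 ± 0.20 and by -0.34 ± 0.20, a difference of 1.72 ± 0.28 (adjusted p = 0.00343 by limma). CCL4, DAZL and SERPINB7, a serine protease inhibitor, were higher at the high dose too, by 1.66 ± 0.32, 1.44 ± 0.22 and 1.16 ± 0.19. NPTX1 had 8.02, 7.94 and 7.58 at 24 h with 10 µg/ml, against 8.4, 8.48 and 8.95 at 1 h, and fell by 0.76 ± 0.28 on the log2 scale. Its difference between the doses was -2.21 ± 0.39 (adjusted p = 0.0105 by limma). IPCEF1, NT5DC2, PLAC8 and CD300A were lower at the high dose by called differences of -1.27 ± 0.28, -1.24 ± 0.23, -1.21 ± 0.27 and -1.16 ± 0.22. For VCAM1, 3.83 ± 0.25 at 100 µg/ml and 2.59 ± 0.25 at 10 µg/ml did not differ by a call (adjusted p = 0.15 by limma), nor did 0.26 ± 0.23 and -0.82 ± 0.23 for TYMS (adjusted p = 0.189 by limma). The median difference of 100 from 10 µg/ml was 0.65 for DNA replication, 0.56 for mitosis and 0.52 for cytokine genes. It was 0.46 for interferon-stimulated genes and 0.31 for the NF-kappaB list. From controls the same lists had medians of 0.84, 0.69, 0.69, 0.70 and 0.47. Lists were not tested as wholes.

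With 100 µg/ml TiO2-NB, 46.8% of genes changed with time. The change with time differed between the materials for 2263 genes (22.5%), 1209 higher (12%) and 1054 lower (10.5%) with MWCNT. Interferon-stimulated genes were called higher with MWCNT in 19 of 34 cases and lower in 1, and DNA replication genes higher in 16 of 38 and lower in 0. Cholesterol genes were higher in 11 of 19 and lower in 2. Cytokine genes split, with 3 of 24 higher and 6 lower with MWCNT. IFI44L, an interferon-stimulated gene, changed by -0.52 ± 0.20 with MWCNT and by -2.31 ± 0.20 with TiO2-NB, a difference of 1.79 ± 0.29 (adjusted p = 0.000223 by limma). CCR7 rose in both, to 6.04, 5.87 and 6.07 at 24 h with MWCNT and to 8.11, 7.42 and 7.61 at 24 h with TiO2-NB, by 1.03 ± 0.17 and by 2.93 ± 0.17. CXCL1 rose by 1.63 ± 0.23 with MWCNT and by 3.12 ± 0.23 with TiO2-NB, a difference of -1.48 ± 0.32 (adjusted p = 0.00249 by limma). The other way round, VCAM1 rose by 3.83 ± 0.25 with MWCNT and by 2.0 ± 0.25 with TiO2-NB, CEMIP by 3.85 ± 0.27 and by 1.91 ± 0.27, and CD163 by 2.15 ± 0.15 and by 1.12 ± 0.15. NPTX1, with -0.16 ± 0.28 under TiO2-NB, and CYP1B1, with 0.07 ± 0.25, had their falls with MWCNT alone of both materials (differences of -2.81 ± 0.39 and -2.12 ± 0.35). FOXF1, a forkhead factor, changed by -1.24 ± 0.23 with MWCNT and by 0.92 ± 0.23 with TiO2-NB. For NAA15 and TM7SF3 the called difference came from the TiO2-NB side, where they changed by -1.99 ± 0.29 and -1.87 ± 0.19, with -0.10 ± 0.29 and -0.08 ± 0.19 with MWCNT. Other genes stood apart from controls with both materials. At 24 h with TiO2-NB, LBH had 8.48, 8.99 and 8.93, and CD300A had 7.4, 7.53 and 7.53. MMP12 was 7.8 or less on every such array. NT5DC2 had 7.73, 8.18 and 8.23, and MMP2 had 7.94, 8.16 and 8.28. IPCEF1 had 8.64, 8.59 and 8.61, and PLAC8 had 6.32, 6.64 and 6.43. All these values lay below the 24 h controls, as they did with MWCNT. CCL4 had 11.51, 11.34 and 11.42, above the 24 h arrays of controls and of MWCNT. CCL2 (8.43, 7.79 and 8.03) and PTGS2 (8.16, 7.38 and 7.41) lay above both as well. LAMP3 (5.29 to 5.72), SPINK1 (4.73 to 5.37), HCAR3 (6.56 to 7.32), MREG (8.18 to 8.31) and IRAK3 (5.76 to 6.12) lay above the 24 h controls. IFIT1, IFI44, PLTP and CCL19 overlapped them. TiO2-NB was not tested against controls.

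**Figure D5:**
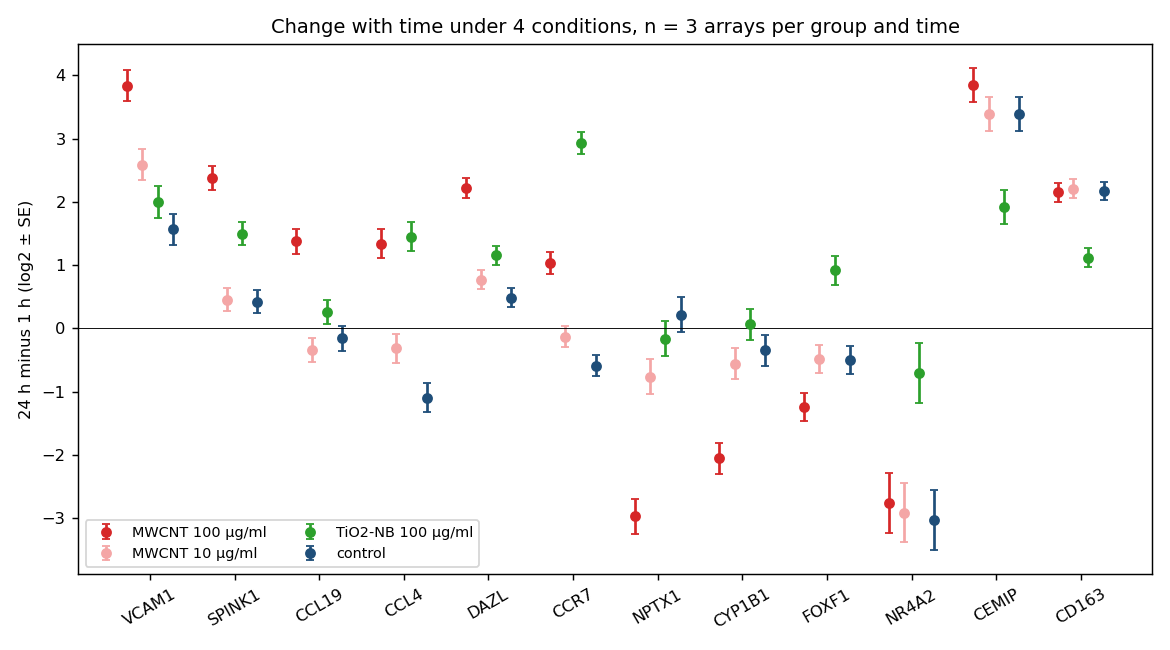
Log2 change from 1 h to 24 h (± SE of the fit, n = 3 arrays per group and time) of 12 genes with 100 µg/ml MWCNT, 10 µg/ml MWCNT, 100 µg/ml TiO2-NB and in controls, from left to right. NPTX1 and CYP1B1 are lowest with 100 µg/ml MWCNT, CCR7 is highest with TiO2-NB, and CD163 and CEMIP rise least with TiO2-NB.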

How the data were processed

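RNA of THP-1 cells was measured on 30 arrays in 10 groups of 3. The submitters' processing notes name RMA with no version; the deposited log2 intensities were used without further normalization. Of 22277 probe sets, 62 were controls, 19064 had 1 gene in the platform annotation, 1043 several and 2108 none. Single-gene probe sets were kept when they exceeded the 25th percentile on 3 or more arrays (15315 probe sets). Where a gene had several (3419 genes), the brightest on average represented it, leaving 10050 genes; 45 genes had probe sets called in opposite directions with time. RefSeq held the gene ID of 19058 single-gene probe sets, and gave positions and promoters (GRCh38.p14; promoters on chromosome 8 left out).

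A single limma 3.58.1 model in R 4.3.3 held 10 group means over all 30 arrays (20 residual degrees of freedom), with empirical Bayes moderation, two-sided tests and Benjamini-Hochberg adjustment within each comparison. It was tested on simulated data. The members, the 31 gene lists and the rule for named genes were chosen with earlier results of these data known. Named were the 12 largest rises and 12 largest falls between the times with MWCNT, the 8 largest called differences from control each way, the 4 largest of each class, up to 5 genes per list, the 5 largest differences each way from the low dose and from TiO2-NB, and 12 preset genes. No 2 arrays held identical values. Deviations of equally numbered 24 h and 1 h MWCNT arrays correlated at -0.11, -0.02 and 0.02. Those of 24 h MWCNT and control arrays correlated at -0.47, 0.06 and -0.51. Numbers were therefore not treated as pairs there, though negative values do not make the arrays independent. At 24 h ELANE was 8.76 and 8.79 on replicate 1 of 100 µg/ml MWCNT and TiO2-NB. It was 8.74 and 8.83 on replicate 3 of controls and 10 µg/ml MWCNT, against 9.68 to 10.24 on the other arrays of these groups. Whether such arrays shared a source of spread was not tested, and a block by number does not join them. The 1 h MWCNT and control arrays of 1 number did deviate together (0.45, 0.68 and 0.50). The number was fitted there as a block in alternatives only, and the main model held no block. Alternatives covered scaling, filter, probe set choice, arrays in the model, variance trend, the replicate block and each array left out.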

Additional observations from a re-analysis of the deposited data

Results flagged for a closer look

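The change from 1 h to 24 h differed between cells with 100 µg/ml MWCNT and control cells, by limma's test of the difference itself, for 58 of the 153 genes named by the rule. The differences below are log2 changes with MWCNT minus log2 changes in controls. The positive ones of over 2-fold began with 2.79 for TNFAIP6, 2.43 for CCL4, 2.27 for VCAM1, 2.2 for LAMP3, 1.95 for SPINK1, 1.84 for HCAR3, 1.77 for CCL8, 1.73 for DAZL and 1.69 for CXCL10. Then came 1.63 for IFIT1, 1.62 for CCR7, 1.53 for CCL19, 1.51 for IFI44, 1.49 for MX1, 1.48 for TYMS, 1.46 for MREG, 1.39 for NDC80, 1.39 for CCL20 and 1.37 for IFI44L. Next were 1.34 for RRM2, 1.2 for CDK1, 1.14 for CCL2, 1.12 for GCH1, 1.1 for IRAK3, 1.08 for SERPINB7, 1.05 for TMEM97, 1.04 for GINS2 and 1.03 for PTGS2. Smaller positive ones were 0.94 for PLTP, 0.61 for ICAM1, 0.58 for NOLC1, 0.56 for WDR12, 0.54 for NOP16, 0.51 for IER5, 0.4 for FDPS, 0.4 for SCD, 0.37 for TAP1, 0.36 for ATP5MC1, 0.33 for CYCS and 0.3 for PRDX1. Negative differences of over 2-fold were -3.19 for NPTX1, -1.73 for MMP12, -1.71 for CYP1B1, -1.61 for ZNF395, -1.57 for IPCEF1, -1.53 for MTHFD2L, -1.5 for CD300A, -1.47 for PLAC8, -1.45 for NT5DC2 and -1.29 for LBH. Smaller negative ones were -0.93 for FCGR2B, -0.89 for STAB1, -0.78 for VSIG4, -0.78 for MMP2, -0.51 for SESN1, -0.39 for CRELD2, -0.39 for IFNGR1 and -0.28 for CTSC.

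HCAR3, a receptor for hydroxy fatty acids, had levels of 7.7, 6.76 and 6.87 at 24 h with MWCNT and of 7.62, 7.96 and 7.69 at 1 h, against 5.24, 5.10 and 5.99 in 24 h controls and 7.79, 8.08 and 7.92 in 1 h controls. Its probe set may also read the near-identical HCAR2. MREG, a protein of organelle transport, had 8.58, 9.02 and 9.06 at 24 h with MWCNT and 6.77, 5.96 and 6.29 at 1 h, against 7.02, 7.38 and 7.35 in 24 h controls and 6.21, 6.01 and 6.26 in 1 h controls. PLAC8 had 6.91, 6.48 and 6.64 at 24 h with MWCNT and 6.90, 6.55 and 7.02 at 1 h, against 8.21, 8.27 and 7.48 in 24 h controls and 6.51, 6.49 and 6.99 in 1 h controls. The difference of MTHFD2L (adjusted p = 0.0457 by limma) lost its call under 13 alternatives. Those of FCGR2B and SCD lay just under the threshold (adjusted p = 0.0499 and adjusted p = 0.0496 by limma) and lost their calls under 13 and 14 alternatives. The probe set of FCGR2B may also read the near-identical FCGR2A and FCGR2C.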

How the results depend on the processing

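The rise or fall of the 153 named genes in the 2 comparisons recomputed for each kept its direction and its side of the threshold in 6008 of the recomputed values, lost its call in 260, gained one in 25 and turned in 1: with probe sets ending in _x_at or _s_at left out, the difference of CD300A was 0.278 (adjusted p = 0.365 by limma). That setting tests fewer genes, and counted 2426 genes changed with time with MWCNT, 2265 in controls, 223 differences from control, 11 from the low dose, 1381 from TiO2-NB, 754 at 24 h, 1543 persisting, 95 stronger or appearing, and 128 weaker, lost or opposite. With only the arrays of the groups compared, which leaves fewer samples, there were 152 differences from control, 6 from the low dose, 48 stronger or appearing, and 104 weaker, lost or opposite changes. At 2-fold or more, 474 genes changed with MWCNT and 83 differed from control. With each array left out in turn, counts ran from 3546 to 4083 for MWCNT over time, 3147 to 3744 for controls, 173 to 483 for differences from control, 8 to 62 from the low dose, 1711 to 2268 from TiO2-NB, 778 to 1288 at 24 h, 2237 to 2484 persisting, 67 to 212 stronger or appearing, and 106 to 271 weaker, lost or opposite. Cyclic loess moved the share of higher calls between the doses to 63.2%, against 48.6%; the cause was not tested.

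Equally numbered arrays deviated together at 1 h between MWCNT and controls, where all 3 pairs correlated above 0.1 (0.45, 0.68 and 0.50). Of the other 15 pairs of groups and numbers, 1 did, over a range of -0.51 to 0.21. With the number as a block among the 1 h arrays alone, chosen after the data were seen, 557 differences from control and 0 genes at 1 h were called. With the replicate block over all groups, 4149 genes changed with time with MWCNT and 3774 in controls, and 424 differed from control, 42 from the low dose, 2362 from TiO2-NB, 0 at 1 h and 1412 at 24 h. Changes that persisted numbered 2593. With 3 arrays per group, an exact permutation test of 1 gene cannot go below p = 0.1.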

Other observations

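Of 34 lysosome genes, 4 rose and 16 fell between 1 h and 24 h with MWCNT (median -0.14), against 6 and 14 in controls (median -0.12), where 22.7% of all genes rose and 17.7% fell with MWCNT. NEU1, the lysosomal sialidase, changed by -1.05 ± 0.07 with MWCNT and by -1.01 ± 0.07 in controls (SE, n = 3 arrays per group and time). Of 25 autophagy genes, 1 rose and 9 fell with MWCNT, against 1 and 8 in controls. Of 16 heat shock genes, 7 rose and 3 fell with MWCNT, against 2 and 3 in controls. By limma, 0 differences from control were called in both lists, where 3.71% of all genes had one, and 2 autophagy genes and 1 heat shock gene had an unadjusted p under 0.05.

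Of 27 antigen presentation genes, 5 rose and 10 fell with MWCNT, against 3 and 14 in controls, with 3 called differences, all higher with MWCNT. HLA-DRA, a class II chain, changed by -0.91 ± 0.27 with MWCNT and by -1.27 ± 0.27 in controls. Of 29 genes of the hypoxia response, 10 rose and 8 fell with MWCNT, against 5 and 6 in controls, and 20.8% of all genes rose and 16.1% fell in controls. Of 8 metallothionein and zinc genes, 1 rose and 3 fell with MWCNT, against 1 and 6 in controls. These 2 lists held 0 called differences by limma, with 4 and 2 genes at an unadjusted p under 0.05.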
